A study of Mus musculus with 6 samples.

Results

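The 6 conventional mouse actin genes were followed across sorted lung cells and whole lung: the smooth muscle actins Acta2 and Actg2, the striated muscle actins Acta1 and Actc1, and the cytoplasmic actins Actb and Actg1. They were found as every non-control probe whose transcript accession maps to 1 of these symbols in RefSeq, which gave 10 probes of the 56605 on the array, and 6 genes of the 22911 that could be named. Acta2 and Actg1 have 3 probes each, numbered here from the brightest, and the other 4 genes have 1. Expression had been measured on 6 one-colour Agilent arrays, 2 for each of 3 groups of male mouse lung material. Myofibroblasts came from bleomycin-treated lungs and were sorted as CD49e+ Sca1- Lin- cells. Steady-state fibroblasts came from untreated lungs and were sorted as CD140a+ Lin- cells. Homogenates were of untreated lung and served as the study's controls. According to the study's design text each set held 50000 cells, and labelling started from 5.8 ng of total RNA on every array. Strain, age, the bleomycin dose and the time after it were not part of the labels. Nor do the labels tie replicates to separate animals. The p-values therefore reflect only how far these arrays differ, and that spread could be technical. Treatment and sorting gate differ together between the sorted groups, and the effects of the gate and of bleomycin cannot be told apart.

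Actin monomers polymerise into the filaments that carry cell shape, movement and, with myosin, contraction. Mammals encode 6 of these monomers, which differ at few amino acids. Actb and Actg1 are made in nearly all cells, whereas the muscle isoforms mark smooth, skeletal and cardiac muscle in the adult. Smooth muscle alpha actin, encoded by Acta2, is the usual marker of the myofibroblast, the contractile, matrix-secreting cell of wound repair and fibrosis. Bleomycin, a DNA-damaging drug, is widely used in mice to bring on lung fibrosis. Transcription of several actin genes is known to depend on serum response factor (SRF), which binds a short element called the CArG box. Its coactivators, the myocardin-related factors, are held in the cytoplasm by free actin monomers.

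A level is given below as relative signal, the processed signal of a spot divided by its array's 75th percentile. Levels of different probes are not comparable, so the level of each actin probe was set only against itself. A summed marker level adds different probes and is ruled by the brightest of them. The 75th percentile lay between 224 and 282 across arrays, and 65.5% to 73.4% of spots were well above background. All 10 actin probes were well above background on all 6 arrays, and no spot on any array was saturated. The sort markers followed the gates: Itga5 (CD49e) was higher in myofibroblasts than in fibroblasts by 4.01 on the log2 scale, and Ly6a (Sca1) and Pdgfra (CD140a) fell by 1.94 and 2.36 (limma adjusted p = 0.00515, 0.0209 and 0.0223). The 7 fibroblast marker genes summed to a relative signal of 990 to 1030 in myofibroblasts, 408 to 539 in fibroblasts and 40.3 to 43.4 in homogenates. Of these 7 genes, 2 were higher in myofibroblasts than in fibroblasts and 2 lower, against 7.3% and 8.79% of all probes tested. The higher 2 were the collagen genes Col1a1 and Col1a2, which make up most of the myofibroblast sum. The lower 2 were Dcn (fell by 2.34) and Pdgfra.

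The promoters of 4 of the 6 genes are in the RefSeq promoter table (GRCm38.p6), each as 300 bases on the minus strand from 250 bases before the annotated start to 50 after it. They are shown because the CArG box is the best known element of actin promoters. Actb and Actg2 have no window in that table. All 6 genes were higher in myofibroblasts than in fibroblasts, and a link between that rise and the boxes was not tested. The windows are chr8:123894726-123895025 for Acta1, chr19:34255324-34255623 for Acta2, chr2:114052826-114053125 for Actc1 and chr11:120348446-120348745 for Actg1. Capitals mark CArG boxes, meaning CC and GG around a core of A and T, either exact or with 1 C or G in the core:
Acta1: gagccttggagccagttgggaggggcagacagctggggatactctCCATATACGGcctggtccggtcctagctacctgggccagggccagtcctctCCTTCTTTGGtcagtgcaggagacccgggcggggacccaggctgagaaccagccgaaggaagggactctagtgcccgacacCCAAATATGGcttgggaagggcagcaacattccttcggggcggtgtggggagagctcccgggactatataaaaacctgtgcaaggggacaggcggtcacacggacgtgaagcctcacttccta
Acta2: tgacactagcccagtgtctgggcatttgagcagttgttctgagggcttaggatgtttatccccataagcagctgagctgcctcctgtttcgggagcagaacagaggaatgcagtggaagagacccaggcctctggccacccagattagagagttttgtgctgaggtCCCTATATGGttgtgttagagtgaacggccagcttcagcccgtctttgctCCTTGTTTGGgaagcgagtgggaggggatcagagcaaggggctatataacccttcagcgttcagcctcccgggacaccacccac
Actc1: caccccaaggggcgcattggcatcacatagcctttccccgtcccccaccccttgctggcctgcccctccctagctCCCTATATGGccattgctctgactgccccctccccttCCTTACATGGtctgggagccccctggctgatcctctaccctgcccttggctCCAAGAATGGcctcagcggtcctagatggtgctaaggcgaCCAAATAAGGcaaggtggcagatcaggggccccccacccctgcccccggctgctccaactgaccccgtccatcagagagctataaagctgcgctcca
Actg1: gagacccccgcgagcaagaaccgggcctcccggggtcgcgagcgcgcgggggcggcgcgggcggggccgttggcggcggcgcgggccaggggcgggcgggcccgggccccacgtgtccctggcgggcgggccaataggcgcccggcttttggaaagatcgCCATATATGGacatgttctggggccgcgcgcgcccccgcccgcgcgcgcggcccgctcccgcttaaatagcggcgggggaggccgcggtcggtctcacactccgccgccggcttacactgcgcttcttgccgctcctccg

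Exact CArG boxes were found in 3 of these 4 windows. Counting the first base before the start as -1, they lie at positions -73 to -64 in Acta1 (CCAAATATGG), -47 to -38 in Actc1 (CCAAATAAGG) and -90 to -81 in Actg1 (CCATATATGG). Acta2 has no exact match in its window and 2 boxes with 1 C or G in the core, CCCTATATGG at -84 to -75 and CCTTGTTTGG at -34 to -25. Acta1 has 2 more boxes of that kind and Actc1 has 3. Among all 32851 windows of the table, which cover 27025 genes, an exact box occurs in 1.63% and the looser form in 8.5%. The MCAT element, CATTCC on either strand and known as a site of TEAD factors, was matched in Acta1 and Acta2 and in 14.7% of all windows. The letters TATAA on either strand were matched in Acta1, Acta2 and Actc1 and in 24.9% of all windows. They lie at -7 to -3 in Acta1, and after the annotated start at 11 to 15 in Acta2 and 34 to 38 in Actc1. All positions given here depend on the annotated start, which was not tested. None of the matches in these windows overlap one another. A match is a description of the letters and not a measured binding site.

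**Figure D1:**
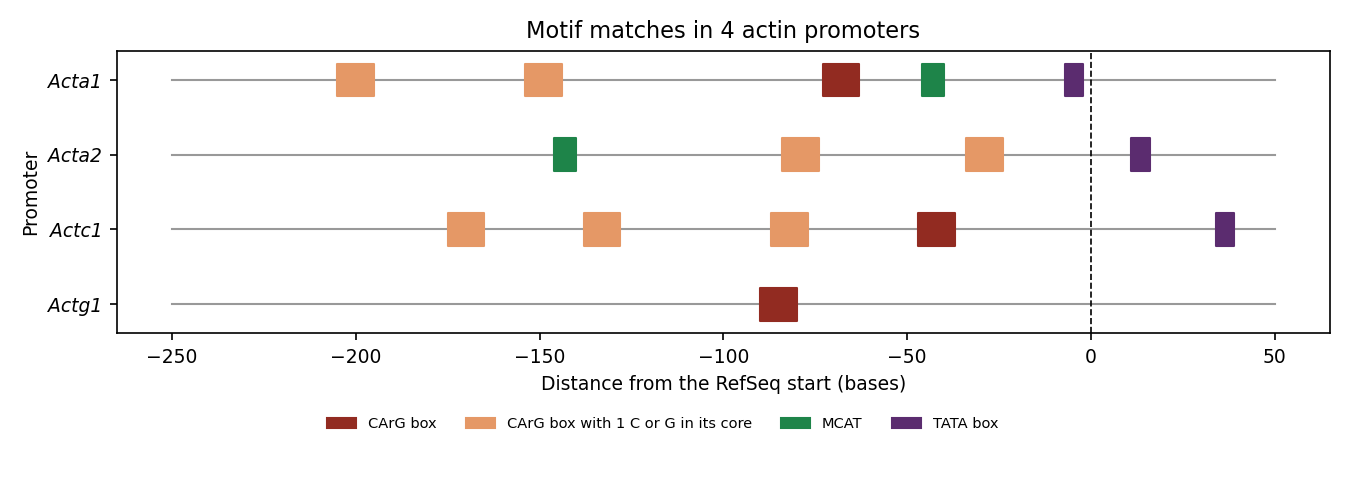
Motif matches in the RefSeq promoters of 4 actin genes, placed by distance in bases from the annotated start (dashed line). Dark red boxes are exact CArG boxes, orange boxes CArG boxes with 1 C or G in the core, green boxes MCAT and purple boxes TATAA; Acta1, Actc1 and Actg1 each have 1 exact CArG box and Acta2 has 2 of the looser form.

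All 6 actin genes were higher in myofibroblasts than in fibroblasts when each was read by its brightest probe. Of the 10 probes, 9 passed limma's test at an adjusted p under 0.05, all of them higher, against 7.3% of the 37115 probes tested that were called higher and 8.79% called lower. The median difference over the 10 probes was 3.82 on the log2 scale, against -0.11 over all probes tested. On all 10 probes both myofibroblast arrays lay above both fibroblast arrays, a separation seen in 28.9% of all probes tested. The rise was 23.4-fold and 69.1-fold for the striated muscle actins Acta1 and Actc1, 10.2-fold to 44.2-fold over the 3 probes of Acta2, 32.6-fold for Actg2, 3.45-fold for Actb and 6.99-fold for the brightest probe of Actg1. In bulk RNA, more cells of a type and more RNA per cell cannot be told apart. With 1 array left out at a time the number of actin genes called was 2 without either myofibroblast array, 5 and 6 without fibroblast replicates 1 and 2, and 3 without either homogenate array, which enters this comparison only through the shared spread. The calls of Acta1, Actc1 and probes 2 and 3 of Acta2 held under every alternative tried.

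**Figure D2:**
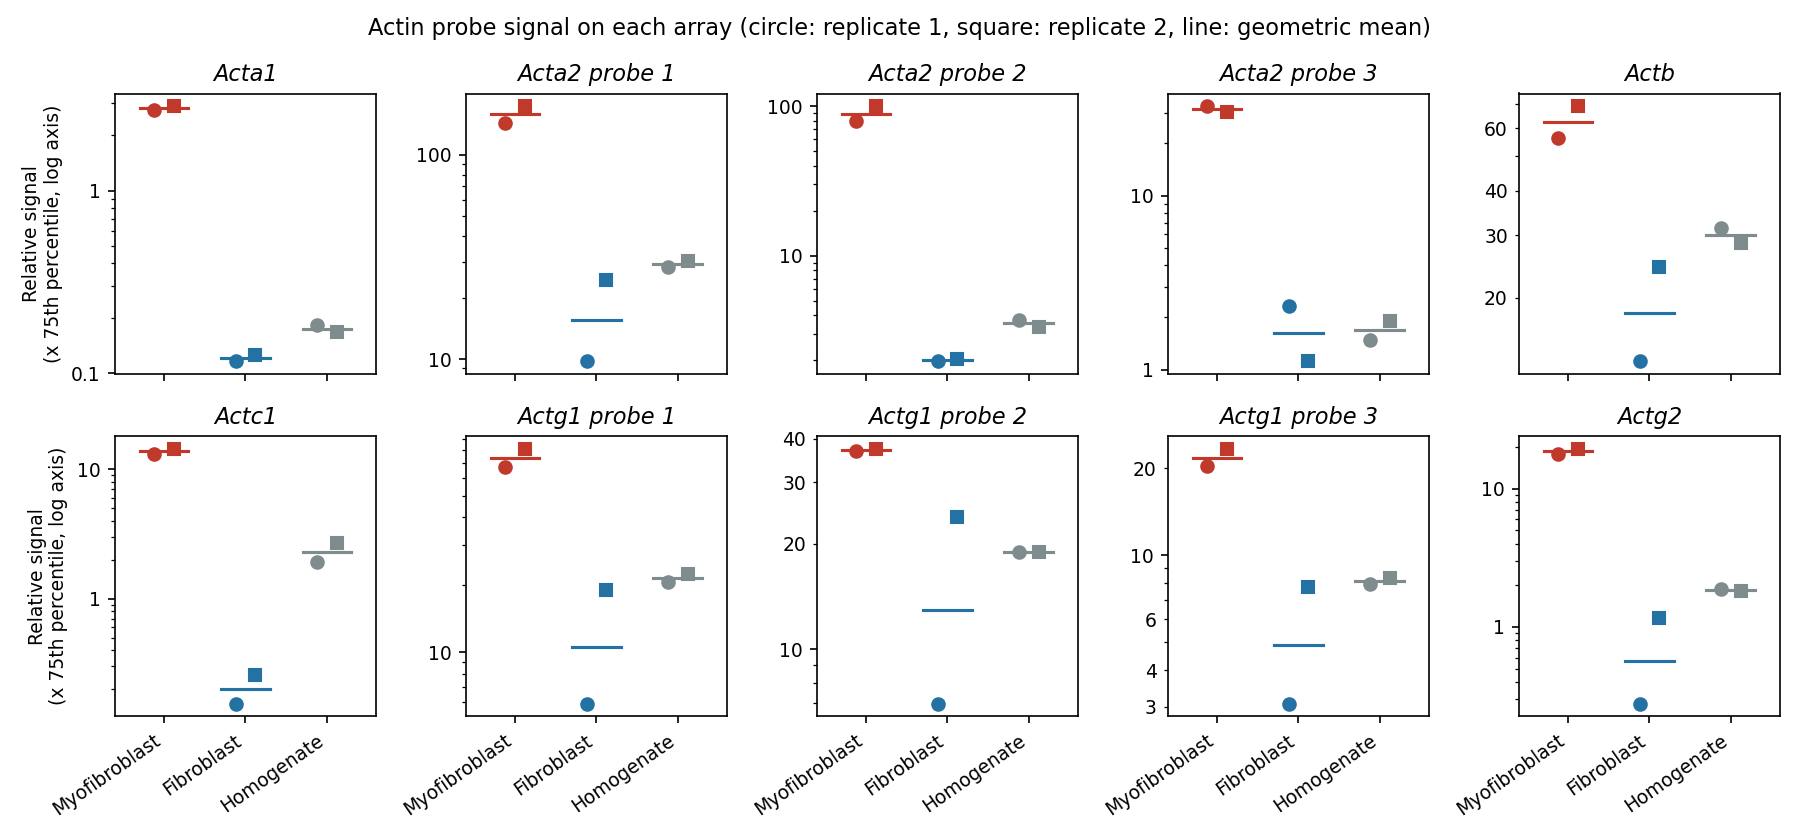
Relative signal of the 10 actin probes on each of the 6 arrays, as multiples of the array's 75th percentile on log axes whose range differs between panels; circles are replicate 1, squares replicate 2 and lines the geometric mean of the 2 arrays. The myofibroblast arrays stand highest in every panel, and the fibroblast arrays lie far apart for Actg1 and Actg2 (0.279 and 1.16 for Actg2).

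Acta2 encodes smooth muscle alpha actin. Its probe 1 read 144 and 173 in myofibroblasts, 9.79 and 24.4 in fibroblasts and 28.2 and 30.3 in homogenates. Probe 2 read 79.5 and 100 in myofibroblasts, 1.98 and 2.05 in fibroblasts and 3.74 and 3.33 in homogenates. Probe 3 read 32.7 and 30.4 in myofibroblasts, 2.33 and 1.12 in fibroblasts and 1.47 and 1.91 in homogenates. On all 3 probes the myofibroblast arrays were far above the other 4, while the order of the fibroblast and homogenate arrays differed between probes. The difference between myofibroblasts and fibroblasts was 3.35 ± 0.47 (SE) on the log2 scale for probe 1 (95% confidence interval 2.16 to 4.53, limma adjusted p = 0.0144). For probe 2 it was 5.47 ± 0.26 (4.82 to 6.12, adjusted p = 0.00212) and for probe 3 it was 4.28 ± 0.41 (3.24 to 5.32, adjusted p = 0.00627). The intervals of probes 1 and 2 do not overlap, and that of probe 3 overlaps both. The 3 probes share a direction, and a difference in size between them was not tested. Without fibroblast replicate 1 the difference on probe 1 was 2.69, and without fibroblast replicate 2 it was 4.01. Without either myofibroblast array (adjusted p = 0.0545 and 0.0702) or either homogenate array (0.0516 and 0.0512) the call on probe 1 was lost. Where on the transcript each probe lies, and how far it takes up RNA of the other actins, was not tested.

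Actg2 encodes smooth muscle gamma actin, the isoform known mainly from gut and bladder muscle. It read 17.8 and 19.4 in myofibroblasts, 0.279 and 1.16 in fibroblasts and 1.88 and 1.82 in homogenates. Myofibroblasts were the highest group and fibroblasts the lowest, with no overlap between any pair of groups, and the fibroblast arrays differed 4.15-fold from each other. The difference between myofibroblasts and fibroblasts was 5.03 ± 0.67 on the log2 scale (3.35 to 6.71, limma adjusted p = 0.0126). It was 4.0 without fibroblast replicate 1, 6.06 without fibroblast replicate 2 and 4.42 with normexp background correction. Without either myofibroblast array the call was lost (adjusted p = 0.0533 and 0.0617).

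Acta1, the actin of adult skeletal muscle, read 2.77 and 2.89 in myofibroblasts, 0.117 and 0.126 in fibroblasts and 0.184 and 0.169 in homogenates. The arrays of each group lay close together and the groups did not overlap. The difference between myofibroblasts and fibroblasts was 4.55 ± 0.24 on the log2 scale (3.95 to 5.14, limma adjusted p = 0.00272). Actc1, the actin of the adult heart, read 13.2 and 14.4 in myofibroblasts, 0.154 and 0.258 in fibroblasts and 1.93 and 2.71 in homogenates. Here the 3 groups were well apart, with homogenates between the sorted groups. Its difference of 6.11 ± 0.36 (5.21 to 7.01, limma adjusted p = 0.00291) was the largest of the 10 probes in this comparison. With normexp background correction, which adds an offset of 50 to the signal, the differences were 2.97 for Acta1 and 4.91 for Actc1, still called (adjusted p = 0.000936 and 0.00106).

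Markers of striated muscle were looked at beside these actins. Of 6 cardiac marker genes tested between the sorted groups, 1 was higher in myofibroblasts and 0 were lower, against 7.3% and 8.79% of all probes tested. That gene was Tnnt2, cardiac troponin T, with 3.77 and 3.99 in myofibroblasts, 0.0947 and 0.0619 in fibroblasts and 0.359 and 0.102 in homogenates (log2 difference between myofibroblasts and fibroblasts 5.66 ± 0.63, limma adjusted p = 0.00843). Myh6, a cardiac myosin heavy chain, read 0.104 and 0.128 in myofibroblasts, 0.129 and 0.151 in fibroblasts and 2.64 and 0.663 in homogenates. Myl7, Actn2 and Sln were not above background on either myofibroblast array. The 10 cardiac markers summed to 6.02 to 6.29 in myofibroblasts, 1.94 to 2.02 in fibroblasts and 3.73 to 6.05 in homogenates. Without Tnnt2 they summed to 2.03 to 2.52 in myofibroblasts, 1.88 to 1.93 in fibroblasts and 3.62 to 5.69 in homogenates. The 8 skeletal markers summed to 1.30 to 1.56 in myofibroblasts, 1.30 to 1.68 in fibroblasts and 1.89 to 2.13 in homogenates. Without Tnnt3 the sums were 0.453 to 0.745 in myofibroblasts, 0.321 to 0.38 in fibroblasts and 1.24 to 1.27 in homogenates. Of 6 tested between the sorted groups, 1 was higher in myofibroblasts and 0 were lower, against 7.3% and 8.79%. Tnni2, the higher one, read 0.0758 and 0.108 in myofibroblasts, 0.0331 and 0.0201 in fibroblasts and 0.781 and 0.814 in homogenates. Not above background in fibroblasts, it was at least 2.11-fold higher in myofibroblasts (limma adjusted p = 0.0304). Ckm, the muscle creatine kinase, was not above background on any of the 6 arrays. The part of striated muscle RNA in the Acta1 and Actc1 values was not tested.

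Actb encodes cytoplasmic beta actin and is often used as a loading reference. It read 56.1 and 69.1 in myofibroblasts, 13.3 and 24.5 in fibroblasts and 31.4 and 28.6 in homogenates. The 3 groups did not overlap, although the fibroblast arrays differed 1.84-fold. The difference between myofibroblasts and fibroblasts was 1.78 ± 0.37 on the log2 scale (0.86 to 2.71, limma adjusted p = 0.0344). It was the smallest of the 6 genes by their brightest probes, and its call was lost under quantile normalization (1.25, adjusted p = 0.0800), without fibroblast replicate 1 (1.34, adjusted p = 0.0519) and without any 1 of the myofibroblast or homogenate arrays (adjusted p up to 0.138).

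Actg1 encodes cytoplasmic gamma actin. Probe 1 read 67.5 and 80.9 in myofibroblasts, 5.89 and 19 in fibroblasts and 20.5 and 22.3 in homogenates. Probe 2 read 36.9 and 37.4 in myofibroblasts, 6.98 and 23.9 in fibroblasts and 18.9 and 19 in homogenates. Probe 3 read 20.3 and 23.3 in myofibroblasts, 3.07 and 7.76 in fibroblasts and 7.96 and 8.31 in homogenates. Myofibroblasts were highest on all 3 probes, and on probe 2 the brighter fibroblast array exceeded both homogenates. The difference between myofibroblasts and fibroblasts was 2.81 ± 0.57 on the log2 scale for probe 1 (1.37 to 4.24, limma adjusted p = 0.0330) and 2.16 ± 0.47 for probe 3 (0.97 to 3.34, adjusted p = 0.0393). Probe 2 differed by 1.52 ± 0.59 (0.04 to 3.0) and did not pass the test (adjusted p = 0.128). The fibroblast arrays differed 3.22-fold, 3.42-fold and 2.52-fold on the 3 probes. Without fibroblast replicate 1 the differences were 1.96, 0.64 and 1.49, and without fibroblast replicate 2 they were 3.65, 2.41 and 2.82, all 3 then called. Without any 1 of the myofibroblast or homogenate arrays the call on probe 1 was lost (adjusted p up to 0.132).

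**Figure D3:**
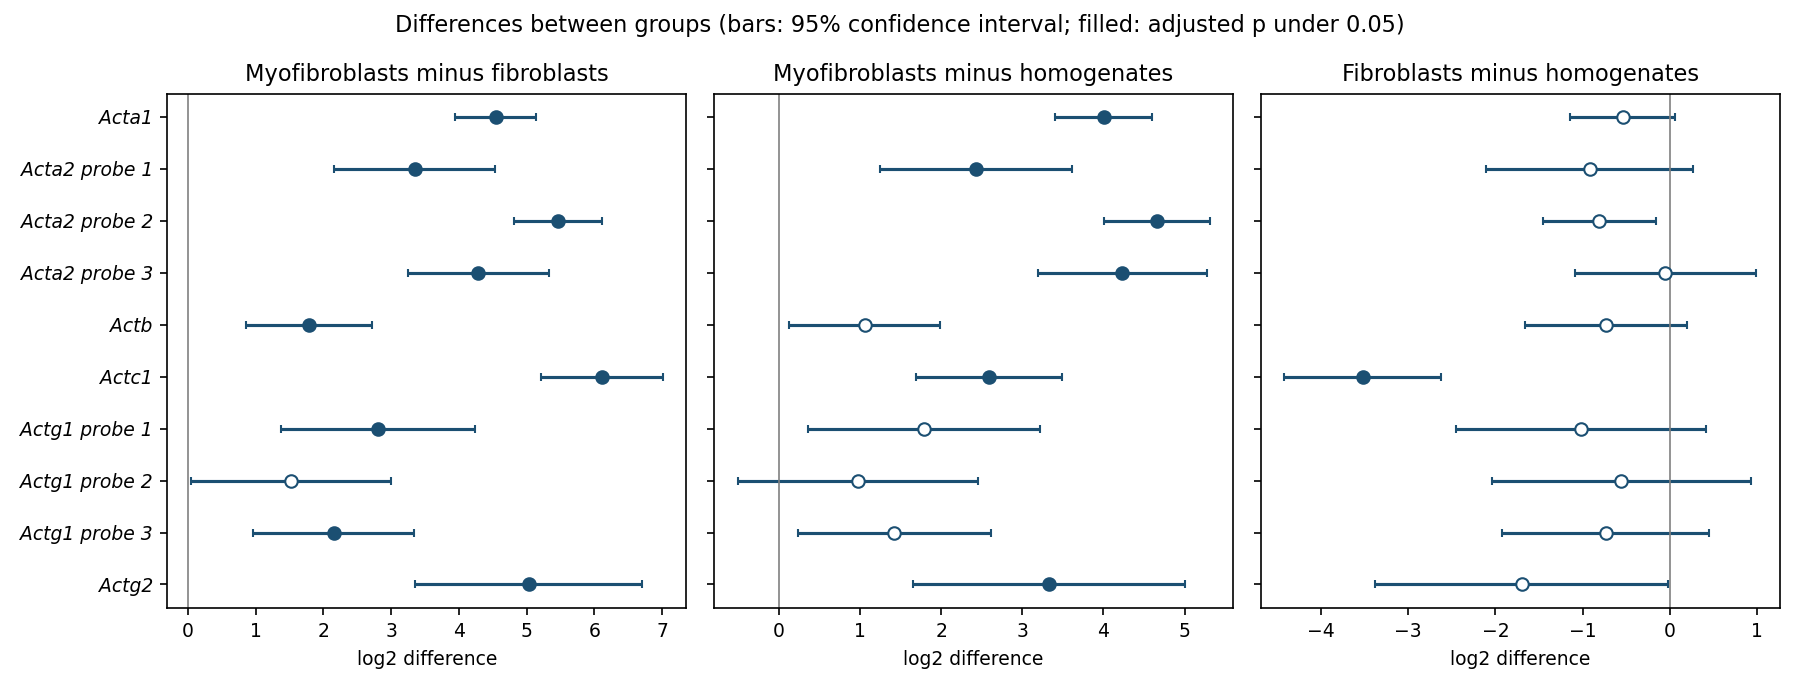
Differences in log2 signal of the 10 actin probes in the 3 comparisons, with 95% confidence intervals from limma; filled points have an adjusted p under 0.05. Of the 10 probes, 9 are filled for myofibroblasts minus fibroblasts, 6 for myofibroblasts minus homogenates and 1 for fibroblasts minus homogenates.

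Set against whole lung, myofibroblasts had more signal for the 4 muscle actins. By the brightest probe 4 of 6 genes were higher and 2 did not pass, and 6 of 10 probes were higher and 4 did not pass, against 8.3% of the 39781 probes tested called higher and 13.7% called lower. The median over the 10 probes was 2.51 on the log2 scale, against -0.13 over all probes tested. On all 10 actin probes both myofibroblast arrays lay above both homogenate arrays, as they did on 34.5% of all probes tested. Acta1 was higher by 4.0 ± 0.24 (limma adjusted p = 0.000754), Actg2 by 3.33 ± 0.67 (adjusted p = 0.0240) and Actc1 by 2.59 ± 0.36 (adjusted p = 0.00764). The 3 probes of Acta2 were higher by 2.43 ± 0.47, 4.66 ± 0.26 and 4.23 ± 0.41 (adjusted p = 0.0218, 0.000635 and 0.00264). The cytoplasmic actins did not pass, with 1.05 ± 0.37 for Actb (adjusted p = 0.0965) and 1.79 ± 0.57, 0.97 ± 0.59 and 1.42 ± 0.47 for the probes of Actg1 (adjusted p = 0.0787, 0.274 and 0.0866). Without either fibroblast array, or with arrays weighted by group, Actb and the brightest Actg1 probe were called as well, so that 6 genes were higher. Without 1 myofibroblast or homogenate array, 1 or 2 genes were called. The normexp correction gave 2.85 for Acta1. These arrays stand in different rows of the slide by sample kind, sorted cells in row 1 and homogenates in row 2, so slide row and sample kind cannot be told apart. Within row 1, myofibroblasts lie in columns 1 and 2 and fibroblasts in columns 3 and 4. Slide column and sorted group cannot be told apart either.

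Steady-state fibroblasts and whole lung differed in 1 actin gene by the test. Actc1 fell by 3.52 ± 0.36 on the log2 scale in fibroblasts relative to homogenates (interval -4.42 to -2.62, 11.5-fold, limma adjusted p = 0.00356). No actin probe was called higher, against 5.42% of the 39642 probes tested called higher and 9.07% called lower. The differences of the other 9 probes were all below 0, between -1.70 ± 0.67 for Actg2 (adjusted p = 0.174) and -0.05 ± 0.41 for Acta2 probe 3 (adjusted p = 0.953). The interval for Actg2 ran from -3.38 to -0.02 and that for Actb from -1.66 to 0.20. On 8 of the 10 probes both fibroblast arrays lay below both homogenate arrays, against 30% of all probes tested, the exceptions being Acta2 probe 3 and Actg1 probe 2. The count depended on 1 array: without fibroblast replicate 2, Acta2 (-1.58), Actb (-1.17), Actg1 (-1.86) and Actg2 (-2.73) were called lower too, which made 5 genes. Without fibroblast replicate 1 the count stayed at 1 and Actc1 stood at -3.15, and with normexp correction it stood at -2.48.

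By group, then, each actin had its highest level in myofibroblasts, and its mean in homogenates exceeded that in fibroblasts. For Actc1 both steps of that order passed the test. For Acta1, Acta2 and Actg2 the step between myofibroblasts and homogenates passed by the brightest probe and that between fibroblasts and homogenates did not, although the fibroblast and homogenate arrays did not overlap on those probes. For Actb and Actg1 neither neighbouring step passed, and only the outer pair, myofibroblasts and fibroblasts, differed by the test.

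The fibroblast arrays disagreed with each other more than the arrays of the other groups. Over probes well above background on both arrays of a group, the standard deviation of the log2 difference between replicates was 0.62 in myofibroblasts, 0.90 in fibroblasts and 0.43 in homogenates. A more than 2-fold gap between replicates occurred in 9.55% of probes in myofibroblasts, 22.9% in fibroblasts and 3.73% in homogenates. Replicate 2 exceeded replicate 1 on 9 of the 10 actin probes in myofibroblasts, 9 in fibroblasts and 6 in homogenates. In fibroblasts the gap reached 2.05 on the log2 scale, for Actg2. The exception in both sorted groups was Acta2 probe 3, at -1.05 for replicate 2 minus replicate 1 in fibroblasts, while there Acta2 probe 2 and Acta1 moved by 0.05 and 0.11. Summed markers of most cell types, fibroblasts included, were lower in fibroblast replicate 2 than in replicate 1, the opposite of most actin probes. In replicates 2 and 1, fibroblast markers summed to 408 and 539. Of these, the sort marker Pdgfra read 35.1 and 73.5, while Dcn (110 and 101) and Tcf21 (9.4 and 3.09) rose. In the same order, epithelial markers summed to 71.9 and 121 and pericyte markers to 24.8 and 51.6. Smooth muscle markers without Actg2 summed to 3.03 and 4.52, and leukocyte markers to 1.24 and 1.55. Endothelial markers, at 0.366 and 0.346, went the other way. So did the epithelial markers without the club cell gene Scgb1a1, at 2.87 and 2.65. The part of these cell types in the actin values was not tested.

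The probes fell into groups when their whole profiles were compared. The distance used was the root mean square difference, on the log2 scale, between profiles centred on their mean over the 6 arrays. Actb lay nearest to Actg1 probe 3, at 0.23, and within 0.49 of all 3 probes of Actg1. Acta1 lay nearest to probes 2 and 3 of Acta2, at 0.40 and 0.42. Acta2 probe 1 lay at 0.30 from Actg1 probe 1, but at 1.09 and 1.01 from the other probes of its own gene, which were 0.62 apart. Actc1 had the most distant nearest actin, Actg2 at 0.85. Actg2 itself lay at 0.72 from its nearest, Acta2 probe 1, and at 0.74 from Acta1. Since every profile shares the same 6 arrays and the high myofibroblast signal, these distances describe the arrays and were not tested.

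**Figure D4:**
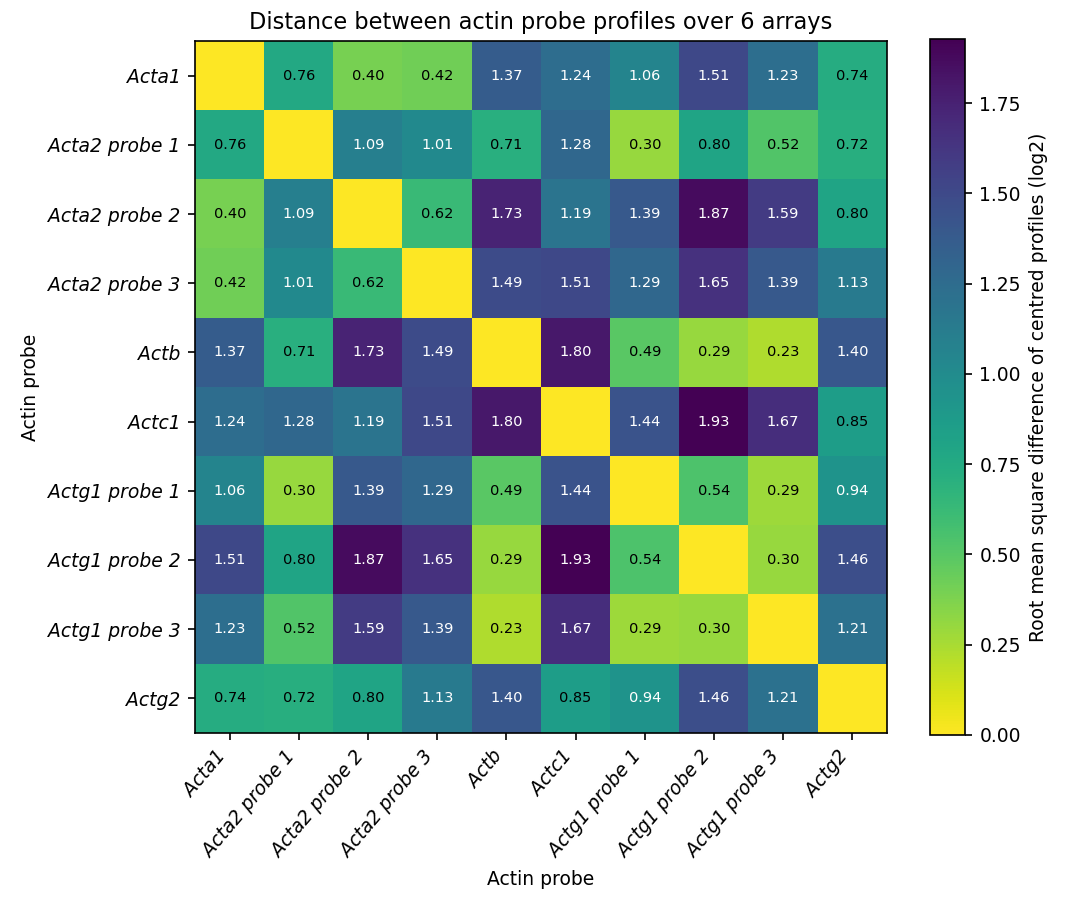
Root mean square difference (log2) between the centred profiles of each pair of actin probes over 6 arrays; yellow is close and dark is far. The Actb and Actg1 probes form a close block, and Acta2 probe 1 is closer to Actg1 probe 1 (0.30) than to Acta2 probes 2 and 3 (1.09 and 1.01).

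By the same distance, the named genes whose profile was most like the brightest probe of each actin were picked from 16057 candidates. For Acta2 they were Lrrc59 (0.22), Jpt2 (0.23) and H3c13 (0.25), and for Actg2 they were Ube2c (0.35), H2ac4 (0.39) and Tnfrsf23 (0.40). Acta1 lay nearest to Enpp1 (0.19), Bpgm (0.22) and Spc24 (0.23). Actc1 lay nearest to Bub1 (0.31), Cxcl9 (0.32) and Gjb2 (0.35). Foxe3 (0.068), Pmf1 (0.088) and H3c4 (0.091) were nearest to Actb, and Ube2m (0.093), Troap (0.11) and Glrx5 (0.12) to Actg1. None of these 18 genes is among the smooth muscle partners or markers listed here.

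Smooth muscle proteins that work with actin were next compared between myofibroblasts and fibroblasts. Of 11 genes tested, 7 were higher in myofibroblasts and 0 lower, against 7.3% and 8.79% of all probes tested. Their median log2 difference was 1.84, against -0.11 over all probes tested. Des, which encodes the muscle intermediate filament desmin, was higher by 7.28 ± 0.63, Cnn1 (calponin) by 4.31 ± 0.26, Tagln (transgelin) by 3.87 ± 0.40 and Tpm2 (beta tropomyosin) by 3.68 ± 0.25 (limma adjusted p = 0.00507, 0.00291, 0.00741 and 0.00340). These 4 calls held under every alternative. The smooth muscle myosin gene Myh11 read 3.67 and 2.78 in myofibroblasts, 0.774 and 0.715 in fibroblasts and 6.45 and 9.47 in homogenates, so its order of groups differs from that of the actins. It was 2.10 ± 0.31 above fibroblasts and fell by 1.29 ± 0.31 relative to homogenates (limma adjusted p = 0.0165 and 0.0404). The 6 smooth muscle markers, of which Actg2 is 1, summed to 31.3 to 33.5 in myofibroblasts, 4.19 to 4.80 in fibroblasts and 10.9 to 13.7 in homogenates. Without Actg2 they summed to 13.6 to 14.1 in myofibroblasts, 3.03 to 4.52 in fibroblasts and 8.99 to 11.9 in homogenates. Lmod1 was not above background on any array, and Synpo2 was above it on 1 of 2 myofibroblast arrays. The part of smooth muscle cells in the actin values was not tested.

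Markers of non-muscle cells were also summed, and their part in the actin values was not tested. Endothelial markers summed to 0.175 to 0.247 in myofibroblasts, 0.346 to 0.366 in fibroblasts and 68.5 to 69.1 in homogenates, with Kdr and Tie1 not above background on any sorted array. Leukocyte markers summed to 1.67 to 3.35 in myofibroblasts, 1.24 to 1.55 in fibroblasts and 115 to 118 in homogenates. Epithelial markers summed to 11.6 to 17.5 in myofibroblasts, 71.9 to 121 in fibroblasts and 828 to 839 in homogenates. Without Scgb1a1, the club cell secretoglobin, the epithelial sums were 1.17 to 1.58 in myofibroblasts, 2.65 to 2.87 in fibroblasts and 225 in both homogenates. Pericyte markers summed to 37.0 to 37.7 in myofibroblasts, 24.8 to 51.6 in fibroblasts and 6.67 to 9.25 in homogenates, most of it from Pdgfrb. Without that gene the pericyte sums were 3.51 to 4.35 in myofibroblasts, 10.6 to 13.6 in fibroblasts and 2.61 in both homogenates. Between the sorted groups Cspg4 was higher in myofibroblasts by 3.26, while Kcnj8 fell by 2.45 and Abcc9 fell by 3.68 (limma adjusted p = 0.00399, 0.0131 and 0.0193).

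Genes of the proteins that handle actin were read in the same way between myofibroblasts and fibroblasts, and each count below stands against the 7.3% of all probes tested that were called higher and the 8.79% called lower. Of 20 monomer-binding and turnover genes tested, 6 were higher and 1 lower (median 0.98 on the log2 scale). Mical2, which oxidises actin filaments, was higher by 3.28 ± 0.34 and the profilin gene Pfn1 by 2.94 ± 0.70, while Gsn, the filament-severing gelsolin, fell by 2.76 ± 0.34 (limma adjusted p = 0.00704, 0.0477 and 0.0106). Cap2, a cyclase-associated protein, was not above background in fibroblasts and was at least 2.54-fold higher in myofibroblasts (adjusted p = 0.0447). Of these 7 calls, 1 held under every alternative, that of Mical2. Among 10 genes of the Arp2/3 complex, which starts branched filaments, 3 were higher and 0 lower (median 1.03): Arpc1b by 1.79, Arpc2 by 1.54 and Actr3 by 1.31. None of these 3 calls held under every alternative.

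Among 13 formins, which build unbranched filaments, 4 were higher and 2 lower, with a median of -0.15. Diaph3 was higher by 5.56 ± 0.50, Fmnl3 by 4.01 ± 0.24 and Fhod3, which was not above background in fibroblasts, by at least 4.32-fold, while Fhod1 fell by 1.99 ± 0.46 (limma adjusted p = 0.00522, 0.00291, 0.00294 and 0.0439). The 3 rises held under every alternative. Of 15 capping and crosslinking genes, 5 were higher and 1 lower (median 1.37). The bundling protein gene Fscn1 was higher by 4.87 ± 0.55 and the capping gene Capg by 2.17 ± 0.26, while Tmod2, a tropomodulin that caps pointed ends, fell by 2.44 ± 0.30 (limma adjusted p = 0.00870, 0.00959 and 0.0106). Of 12 folding and modification genes, 3 were higher and 1 lower (median 0.55). The chaperonin subunit genes Cct7, Cct2 and Tcp1, whose complex folds new actin, were higher by 1.52, 1.27 and 1.17. Naa80, the enzyme that acetylates the actin N-terminus, fell by 1.23. Of the 6 calls on capping and crosslinking genes, those of Fscn1 and Capg held under every alternative, and of the 4 on folding and modification genes 0 did.

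Of 5 listed genes of SRF and its coactivators with a probe, 3 were tested between the sorted groups, and Myocd and Abra were not. Of the 3 tested, 0 passed limma's test, and 2 had an unadjusted p under 0.05. Srf stood at -0.44 ± 0.34, Mrtfa at -0.70 ± 0.26 and Mrtfb at -1.50 ± 0.40 on the log2 scale (limma adjusted p = 0.381, 0.123 and 0.0592). Transcript level says nothing of where these proteins are in the cell, which is how monomeric actin is known to act on them. Relative to homogenates, Mrtfb fell by 1.99 ± 0.40 in myofibroblasts (limma adjusted p = 0.0234). Of 11 other genes of the actin superfamily tested, 2 were higher in myofibroblasts than in fibroblasts and 0 lower (median -0.08). Over all probes tested, 7.3% were called higher and 8.79% lower. The 2 were the actin-like gene Actl7b, by 2.09 ± 0.31, and Actr1b, a dynactin subunit, by 2.05 ± 0.35 (limma adjusted p = 0.0162 and 0.0225). Neither of these calls held under every alternative. Changing the scaling between arrays, leaving out an array or changing the filter turned the direction of none of the called genes in these lists.

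**Figure D5:**
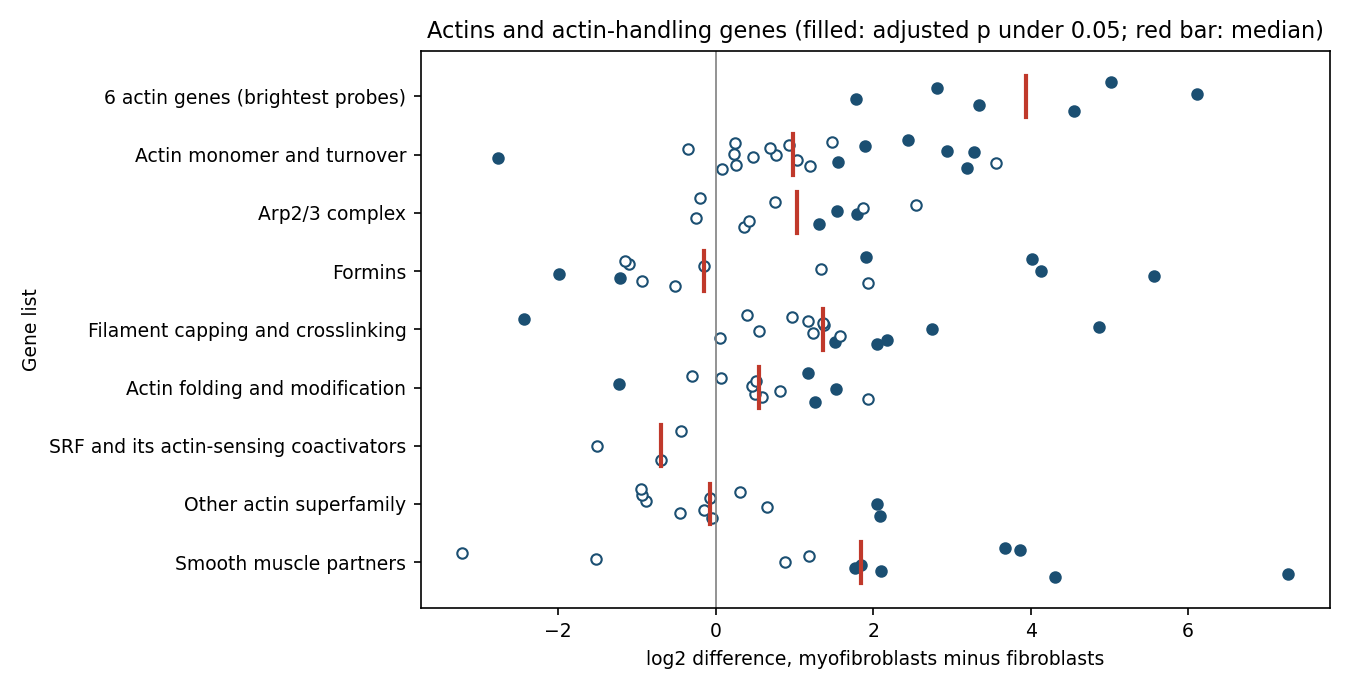
Difference in log2 signal between myofibroblasts and fibroblasts for the 6 actin genes (brightest probes) and for 8 lists of genes that act with actin or belong to its superfamily; each point is a gene, filled where the adjusted p is under 0.05, and red bars are medians. All 6 actins are filled and above 0, and among the lists the smooth muscle partners have the highest median (1.84).

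Against whole lung the same lists read differently. Over all probes tested, 8.3% were called higher and 13.7% lower in myofibroblasts relative to homogenates. In fibroblasts relative to homogenates these shares were 5.42% and 9.07%. The Arp2/3 complex had 0 genes called either way by limma in myofibroblasts relative to homogenates, with 1 of 10 at an unadjusted p under 0.05, and 2 lower in fibroblasts relative to homogenates, Arpc2 by -1.25 and Arpc1b by -1.10 on the log2 scale. Among the genes called lower in both sorted groups were 3 known mainly from leukocytes. Coro1a, a coronin, was at least 51.3-fold lower in myofibroblasts and at least 48.4-fold lower in fibroblasts than in homogenates (limma adjusted p = 0.000671 and 0.000694). Lcp1, the leukocyte plastin, fell by 6.69 ± 0.41 in myofibroblasts and fell by 8.07 ± 0.41 in fibroblasts (adjusted p = 0.000794 and 0.000544). The formin gene Fmnl1 fell by 4.35 ± 0.41 in myofibroblasts and fell by 3.24 ± 0.41 in fibroblasts (adjusted p = 0.00246 and 0.00704). Of 11 smooth muscle partners, 8 were higher and 2 lower in myofibroblasts relative to homogenates, and 0 higher and 2 lower in fibroblasts relative to homogenates. Des was 5.04 ± 0.63 above homogenates in myofibroblasts and Tagln 4.06 ± 0.40, while Synpo2 and Myh11 were the 2 that fell.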

How the data were processed

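The authors deposited 1 scanner file per array, written by Agilent Feature Extraction 12.0.3.1 per the submitters' processing notes and the file headers. Its processed signal is an intensity with background and a spatial trend removed within the array, per the file headers. A further table that the authors deposited holds normalized intensity values. Each of its columns equals the processed signal times 1 constant per array (5.17 to 6.93), and no source used here states how those constants were set.

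Here the log2 of the deposited intensity, after subtracting the log2 75th percentile of its array, was fitted with limma 3.58.1 in R 4.3.3, 3 groups in 1 fit (3 residual and 5.39 total degrees of freedom). Control and outlier spots were left out and spots of a probe averaged. A probe was tested where 1 or both groups had it well above background on each of their arrays, and p-values were adjusted (Benjamini-Hochberg, two-sided) over all probes tested in a comparison. The brightest probe stood for a gene. Probes were named through a RefSeq table by accession: 32994 had 1 gene, 0 several and 23611 none. A gene not above background in a group is given as a bound: the mean of the other group over the higher of that probe's signal and the lowest signal well above background on each array. The code was tested on simulated data.

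The actins and all lists were chosen with earlier results of these data known. Of each list, up to 4 called members with the largest difference were named, except 1 that is not reported here, and for each actin the 3 closest profiles; Myh11, Myh6, single marker genes and markers not above background were added after their values were seen, as were Srf, Mrtfa and Mrtfb. All arrays lie on 1 slide with 1 scan. With 2 arrays a group, the number of arrays limits the precision. The main fit did not pair samples by replicate number. Deviations between replicates correlated at 0.042, -0.00617 and 0.00599 between groups, which cannot show whether the samples had been paired. The alternatives changed the scaling, background correction, filter, probe rule, variance model, threshold and the arrays used.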

Additional observations from a re-analysis of the deposited data

How the results depend on the processing

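Of 192 repeats of the 10 probes' results per comparison, the call was kept in 155 (myofibroblasts minus fibroblasts), 184 (fibroblasts minus homogenates) and 163 (myofibroblasts minus homogenates), it was lost in 36, 0 and 11 and gained in 1, 8 and 18, and no called value changed sign. For myofibroblasts minus fibroblasts, quantile normalization ended the calls of Actb (1.25) and Actg1 (2.30). No filter on dim probes (more probes tested), and a fit of only the 4 arrays compared (fewer degrees of freedom), left both at 1.78 and 2.81 without a call. Array weights per group ended the call of Actb (1.78), and the median over the probes of a gene that of Actg1 (1.81). At an adjusted p under 0.01, 2 actin genes were called in each comparison with myofibroblasts, and Acta2 (3.35 and 2.43) and Actg2 (5.03 and 3.33) lost both calls, Actb (1.78) and Actg1 (2.81) the one against fibroblasts. For myofibroblasts minus homogenates, Actb and Actg1 were called under median scaling (1.46 and 2.19), in the fit of 4 arrays and with array weights (1.05 and 1.79 in both). Except where the construction is named, the cause was not tested. Leaving out 1 array at a time, actin genes called ranged from 2 to 6 (myofibroblasts minus fibroblasts), 1 to 5 (fibroblasts minus homogenates) and 1 to 6 (myofibroblasts minus homogenates). The differences then ranged from 2.69 to 4.01 for Acta2, 1.34 to 2.23 for Actb, 1.96 to 3.65 for Actg1 and 4.0 to 6.06 for Actg2 (myofibroblasts minus fibroblasts), from -1.58 to -0.26, -1.17 to -0.29, -1.86 to -0.18 and -2.73 to -0.67 (fibroblasts minus homogenates), and from 2.30 to 2.56 for Acta2, 0.90 to 1.20 for Actb, 2.35 to 2.84 for Actc1, 1.66 to 1.92 for Actg1 and 3.26 to 3.39 for Actg2 (myofibroblasts minus homogenates). With the replicate number as a block (replicate block), 6, 1 and 4 actin genes were called as in the main result and no actin call changed; all probes called between the sorted groups numbered 4303, against 5973 without the block.

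Scaling moved the background. Between the sorted groups 45.4% of called probes were higher, against 57.6% under median scaling, 33.1% with the percentile over probes detected on all arrays and 20.7% in the authors' deposited table, where the median of all probes tested moved to 0.03, -0.29 and -0.52. For myofibroblasts minus homogenates the share was 37.8%, against 61.9%, 21.3% and 15.9% in the same order and 51.8% with normexp, with the median of all probes at 0.27, -0.46, -0.63 and 0.06. For fibroblasts minus homogenates it was 37.4%, against 48.8% under median scaling and 48.9% with normexp. The count of probes called between the sorted groups, 5973, ran from 1061 (adjusted p under 0.01) to 11821 (without fibroblast replicate 2), with 2758 with 1 probe per gene, 2255 under array weights, 2260 for 4 arrays, 3834 without a filter, 9245 in the authors' deposited table and 1609 to 2698 without 1 array of the other groups. That between fibroblasts and homogenates, 5743,, was 2586 at an adjusted p under 0.01, 2704 with a strict filter and 3392 with 1 probe per gene, and ran from 2236 and 2506 without homogenate replicates 2 and 1 up to 10228 without fibroblast replicate 2. That between myofibroblasts and homogenates, 8744,, was 3443 at an adjusted p under 0.01, 4820 with a strict filter, 4614 with 1 probe per gene, 14557 for 4 arrays and 15539 with array weights. It was 5805 and 4883 without myofibroblast replicates 1 and 2, 13915 and 13801 without fibroblast replicates 1 and 2, and 3348 and 3081 without homogenate replicates 1 and 2.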
